A study of Mus musculus with 2 samples.

Results

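The genes described here are 10 mouse genes of prostaglandin and leukotriene synthesis, taken by symbol from the 55386 features that both libraries share: Pla2g4a, Ptgs1, Ptgs2, Ptges, Hpgds, Alox5, Alox5ap, Lta4h, Ltc4s and Alox15. Each symbol matched 1 feature. They were read in single immune cells of the mouse aortic adventitia, the outer layer of the vessel wall, at rest and under angiotensin II (AngII), a peptide that raises blood pressure and inflames the vessel.

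The steady-state library held cells pooled from 3 untreated mice and the AngII library cells pooled from 2 mice that received 1.8 µg AngII per kg per min for 10 days from implanted pumps. All mice were RankCre Rosa26eYFP animals of about 16 weeks, in which cells that express or descend from cells expressing Rank (Tnfrsf11a) carry the YFP reporter, in both libraries. The reporter follows the progeny of early erythro-myeloid progenitors and marks a lineage, not a state of the cell. Cells were sorted as viable and CD45-positive, so that the vessel's own muscle, endothelial and fibroblast cells, which can also make prostaglandins, were meant to be removed. With 1 library per condition, no difference between conditions could be tested: every interval below covers counting error only, not the spread between cells of a class or between animals.

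Both families of lipid mediators begin with arachidonic acid, which the cytosolic phospholipase encoded by Pla2g4a frees from membranes. The cyclooxygenases Ptgs1, made steadily in many cells, and Ptgs2, induced by inflammatory signals, turn it into prostaglandin H2, which terminal synthases such as Ptges and Hpgds convert to prostaglandin E2 and prostaglandin D2. In the other branch 5-lipoxygenase (Alox5), helped by its membrane partner FLAP (Alox5ap), makes leukotriene A4, from which Lta4h makes leukotriene B4, an attractant of neutrophils, and Ltc4s makes leukotriene C4, the parent of the cysteinyl leukotrienes that act on vessels and airways.

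After barcodes outside 300 to 6500 genes or above 5% mitochondrial UMIs were removed, 306 steady-state and 4198 AngII cells remained, with 3805 and 22208 UMIs (counted molecules) of the 10 genes. The libraries differed in depth: the median cell held 9105 UMIs at steady state and 1092 on AngII, and 45.5% of AngII cells held fewer than 1000. Levels are therefore given as CPM, the gene's UMIs summed over a class of cells and scaled by all UMIs of that class, and shares of cells with a UMI also after each cell was thinned to 1000 UMIs. Cells were put in classes by marker genes that included none of the 10. The named classes of at least 20 cells in both libraries were Lyve1/Folr2 macrophage-like cells (104 at steady state, 268 on AngII), Ear2/Retnla macrophage-like cells (21 and 109), T cell-like cells (41 and 325) and B cell-like cells (49 and 103). On AngII there were also 1779 other macrophage-like cells, led by C1qb, Ms4a7 and Cxcl10, and 225 Arg1/Spp1 macrophage-like, 252 classical monocyte-like and 139 neutrophil-like cells. The steady-state counterpart of the other macrophages, 20 cells led by Cxcl9 and Ccl22, held none of its markers among its 10 leading genes and is left unnamed. A list of 12 stromal and vascular genes summed to 147 CPM at steady state, or 37.2 CPM without a single cell that held 402 of its 537 UMIs, and to 34.5 CPM on AngII; its part in the results was not tested.

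Promoters are shown for 4 genes that the results return to: Ltc4s and Alox5 of the leukotriene branch, which lay together in Lyve1/Folr2 macrophages, and the pair of cyclooxygenase genes, whose ratios of AngII to steady state lay on opposite sides of 1. The bases lie upstream of the transcription start, run 5′ to 3′ on the gene's strand and come from RefSeq (GRCm38.p6). Ltc4s is chr11:50238617-50238782, minus strand, shortened to the part outside the annotated gene. Alox5 is chr6:116461179-116461428, minus strand. Ptgs1 is chr2:36230176-36230425, plus strand, and Ptgs2 is chr1:150099781-150100030, plus strand. Capitals mark matches to the letter patterns named below.

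Ltc4s: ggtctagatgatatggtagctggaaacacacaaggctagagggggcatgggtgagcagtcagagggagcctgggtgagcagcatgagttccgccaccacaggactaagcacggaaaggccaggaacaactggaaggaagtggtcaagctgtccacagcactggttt

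Alox5: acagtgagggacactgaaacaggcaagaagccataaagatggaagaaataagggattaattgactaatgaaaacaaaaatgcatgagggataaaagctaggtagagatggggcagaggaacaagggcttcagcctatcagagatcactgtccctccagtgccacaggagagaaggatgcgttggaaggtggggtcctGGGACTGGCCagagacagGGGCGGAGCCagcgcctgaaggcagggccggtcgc

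Ptgs1: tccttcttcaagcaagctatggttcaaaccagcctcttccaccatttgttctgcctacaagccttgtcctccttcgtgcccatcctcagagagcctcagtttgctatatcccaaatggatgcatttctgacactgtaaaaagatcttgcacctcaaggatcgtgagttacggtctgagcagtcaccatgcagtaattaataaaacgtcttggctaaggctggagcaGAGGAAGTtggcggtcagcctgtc

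Ptgs2: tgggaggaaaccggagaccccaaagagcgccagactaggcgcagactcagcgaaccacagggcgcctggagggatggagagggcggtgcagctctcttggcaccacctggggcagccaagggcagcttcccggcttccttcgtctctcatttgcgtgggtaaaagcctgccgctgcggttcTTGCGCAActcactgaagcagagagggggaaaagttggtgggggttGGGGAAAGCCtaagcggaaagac

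Of 7 patterns searched on both strands of the 250 bases before the start, the Ptgs2 promoter held a C/EBP pattern (TTGCNNAA) from -69 to -62 and an NF-kB pattern (GGG and CC with any 5 bases between) from -23 to -14. C/EBP and NF-kB are factors of inflammatory gene activation. Of 27025 mouse promoters of that length, 9.55% held the first and 45.4% the second. Alox5 held the NF-kB pattern at -53 to -44 and at -35 to -26. Ptgs1 held the pattern of the myeloid factor PU.1 (GAGGAAGT) from -24 to -17, present in 2.44% of all promoters, and Ltc4s held none of the 7 in its full window. The remaining patterns were the TATA box (TATAAA, 13% of promoters), the cyclic-AMP element (TGACGTCA, 1.62%), a MAF pattern (TGCTGAC, 3.72%) and AP-1 (TGANTCA, 6.87%), and the 4 genes shown held none of them. RefSeq promoters were found for 8 of the 10 genes. A match is a run of letters and not a measured binding site.

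**Figure D1:**
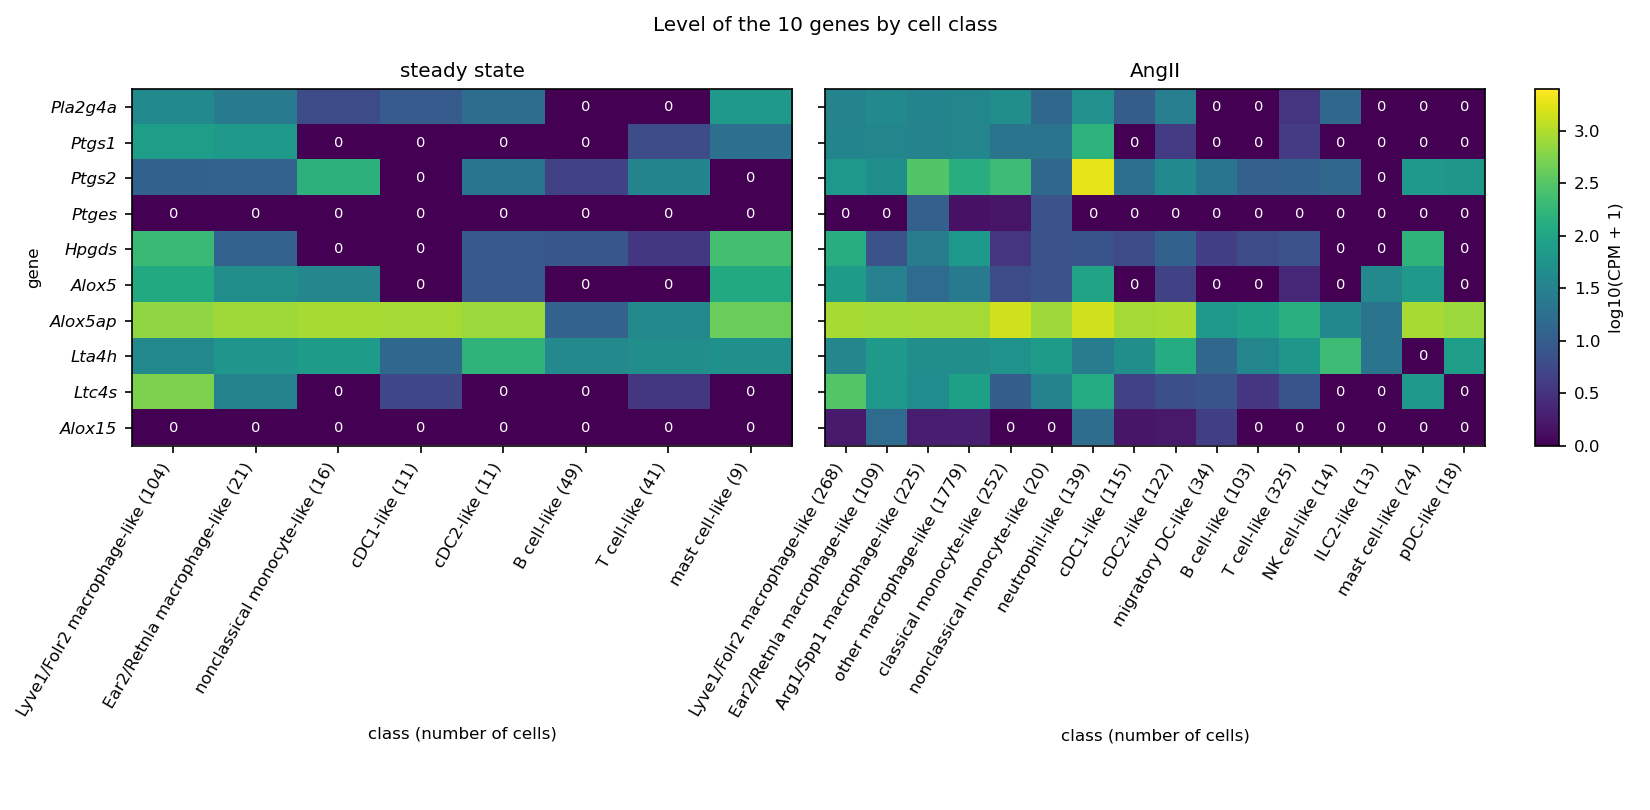
Level of each of the 10 genes (vertical) in each class (horizontal, number of cells in parentheses) at steady state and on AngII, as log10 of CPM plus 1. Classes of at least 9 cells are drawn and 0 marks a gene without a UMI. Alox5ap is bright in nearly all myeloid classes, Ltc4s and Hpgds are brightest in the Lyve1/Folr2 macrophage-like cells among macrophages, and Ptgs2 in the AngII neutrophil-like cells (1853 CPM).

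Pla2g4a (chr1:149829618-149961290, minus strand, GRCm38.p6) was low and spread evenly over the macrophages. At steady state its level was 41.0 CPM (95% Poisson interval 30.2 to 54.6, 47 UMIs) in Lyve1/Folr2 macrophage-like cells and 24.7 CPM (13.5 to 41.4) in Ear2/Retnla macrophage-like cells. On AngII it lay between 31.7 CPM in Lyve1/Folr2 macrophages and 50.7 CPM in neutrophils over the 6 macrophage, monocyte and neutrophil classes of at least 100 cells, and each neighbour in that order differed by less than the counting error. Lymphoid cells held nearly none: no UMI in 49 steady-state and 103 AngII B cell-like cells, which allows at most 10.7 and 7.48 CPM, and 3 UMIs in 325 AngII T cell-like cells. Here and below, the most allowed in CPM is the level of 3 UMIs. The upper end of the 95% Poisson interval is higher, 13.1 and 9.19 CPM in these B cells. The gene of the release step was thus detected in each of the 6 macrophage, monocyte and neutrophil classes named above.

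Ptgs1 (chr2:36230426-36252272, plus strand) was at steady state a macrophage transcript. It stood at 79.5 CPM (64.0 to 97.6, 91 UMIs in 49 of 104 cells) in Lyve1/Folr2 macrophages and at 68.7 CPM (48.9 to 94.0, 39 UMIs in 14 of 21 cells) in Ear2/Retnla macrophages, while T cells held 2 UMIs in all and B cells none (at most 10.7 CPM). The levels of the 2 macrophage classes differed by less than the counting error (ratio 1.16, interval 0.786 to 1.73). On AngII the 4 macrophage classes lay close together, between 32.0 CPM in Arg1/Spp1 and 35.4 CPM in other macrophages. As the mean of per-cell CPM, Ear2/Retnla macrophages (22 UMIs in 11 of 109 cells) stood apart at 12.3. By that measure the lowest of the remaining macrophage classes stood at 29.3 and the highest at 37.2. Neutrophils held 157 CPM (122 to 198, 71 UMIs in 41 of 139 cells), 4.42 times the level of the other macrophages (3.34 to 5.79). No Ptgs1 UMI was found in 115 cDC1-like cells (type 1 conventional dendritic cells), which allows at most 1.84 CPM.

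Ptgs2 (chr1:150100031-150108227, plus strand) differed widely between classes on AngII. There neutrophil-like cells held 1853 CPM (840 UMIs, in 85 of 139 cells, or 61.2%). Arg1/Spp1 macrophage-like cells followed at 303 CPM (272 to 336), classical monocyte-like cells at 215 CPM (194 to 238) and other macrophage-like cells at 129 CPM (121 to 138), and each step in this order was larger than the counting error. Lyve1/Folr2 macrophages (64.9 CPM, 52.0 to 80.0) and Ear2/Retnla macrophages (49.0 CPM, 33.3 to 69.6) lay below them and did not differ from each other beyond counting error. Their order depended on how cells were weighted. The mean of per-cell CPM was 69.2 in Lyve1/Folr2, 144 in Ear2/Retnla and 175 in other macrophages. The B and T cell-like cells stood at 9.97 and 10.3 CPM, and the part of free RNA in any of these levels was not tested. Neutrophils were 2.52% of all AngII UMIs and held 30.7% of the Ptgs2 UMIs.

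At steady state Ptgs2 was rare: 22 of 306 cells had a UMI. Of its 142 UMIs, 51 lay in the only 3 neutrophil-like cells, whose per-cell levels ran from 1376 over 4568 to 5783 CPM. Nonclassical monocyte-like cells held 151 CPM (101 to 216, 5 of 16 cells) and classical monocyte-like cells 149 CPM, with 92.3% of the latter's UMIs in a single cell of 7. Lyve1/Folr2 macrophages held 12 UMIs in 4 of 104 cells (10.5 CPM, 5.42 to 18.3) and Ear2/Retnla macrophages 6 UMIs, all in 1 cell. B cells stood at 3.56 CPM and T cells at 33.5 CPM, where all 13 UMIs came from 1 cell, so the resting macrophage levels lay between those of the lymphoid classes.

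Within a class Ptgs2 was spread unevenly. On AngII the highest 22 of 225 Arg1/Spp1 macrophages held 82.5% of that class's Ptgs2 UMIs, the highest 25 of 252 classical monocytes 79.7% and the highest 178 of 1779 other macrophages 87.0%. In neutrophils the highest 14 of 139 cells held 42.6%, and the median neutrophil stood at 956 CPM while the median cell of the other 3 classes had no UMI. After thinning to 1000 UMIs the share of cells with a Ptgs2 UMI was 56.4% in neutrophils, 19.7% in Arg1/Spp1 macrophages, 11.9% in other macrophages, 10.3% in classical monocytes and 4.02% in Lyve1/Folr2 macrophages. At the same depth it was 3.24% in T cells (6 of 185) and 0 of 68 in B cells, which allows up to 5.28% (exact upper bound). The thinned share of Lyve1/Folr2 macrophages therefore lay close to that of T cells, although their level was higher.

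Ptges (chr2:30889471-30929863, minus strand), the inducible prostaglandin E2 synthase, was rarely detected. It had no UMI in the steady-state cells, which allows at most 0.822 CPM, and 17 UMIs in 8 of 4198 AngII cells. Of these, 10 came from a single Arg1/Spp1 macrophage that also held 47 Ptgs2, 286 Il1b and 86 Inhba UMIs. Inhba is a gating marker of that class. Each remaining cell had 1 Ptges UMI. Among them an Arg1/Spp1 macrophage held 17 Ptgs2 UMIs, an other macrophage held 3, and the rest held none. The gene overlaps Gm13400 on the same strand, so reads of the pair could be confused. At this depth the Ptgs2-rich neutrophils held no Ptges UMI, which allows at most 6.62 CPM.

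Hpgds (chr6:65117293-65144908, minus strand), the hematopoietic prostaglandin D2 synthase, followed the Lyve1/Folr2 macrophages and mast cells. At steady state it stood at 199 CPM (174 to 227, 76 of 104 cells) in Lyve1/Folr2 macrophages against 10.6 CPM (3.88 to 23.0) in Ear2/Retnla macrophages, a ratio of 18.8 (8.52 to 51.9). The 9 steady-state mast cell-like cells held 233 CPM (127 to 390). On AngII the order was mast cells (163 CPM, only 5 UMIs, 52.9 to 380), Lyve1/Folr2 macrophages (131 CPM, 112 to 151), other macrophages (63.6 CPM, 57.6 to 70.1) and Arg1/Spp1 macrophages (26.9 CPM, 18.4 to 38.0). Mast cells and Lyve1/Folr2 macrophages differed by less than the counting error, while the next 2 steps were larger than it. Ear2/Retnla macrophages (6.33 CPM), neutrophils (6.62 CPM) and classical monocytes (2.30 CPM) lay at the level of T cells (5.88 CPM) and B cells (4.98 CPM).

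**Figure D2:**
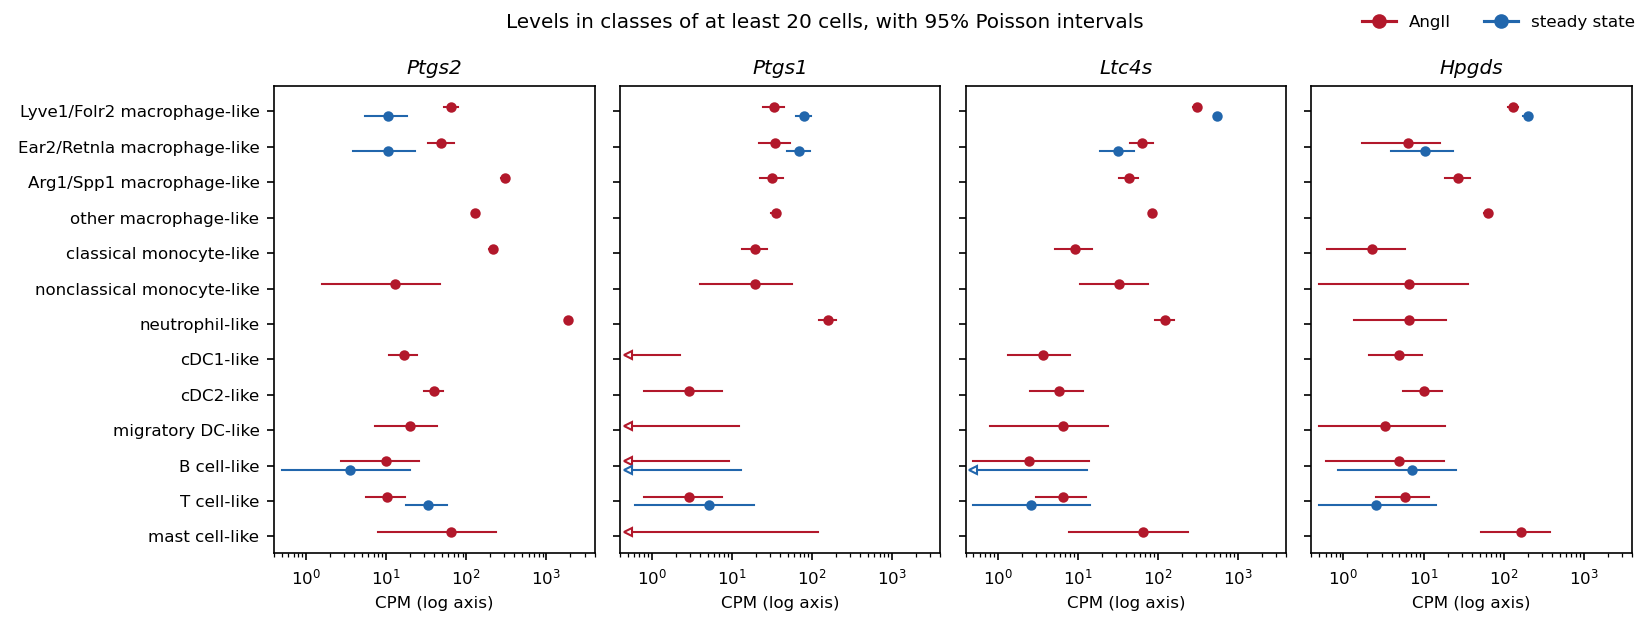
Level of Ptgs2, Ptgs1, Ltc4s and Hpgds in CPM (log axis) in classes of at least 20 cells, AngII in red and steady state in blue, with 95% Poisson intervals. Open triangles mark classes without a UMI, and intervals that reach below the axis are cut at its left end. Neutrophil-like cells lead Ptgs2 (1853 CPM) and Ptgs1 (157 CPM), and Lyve1/Folr2 macrophage-like cells lead Ltc4s in both libraries (541 and 307 CPM).

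Alox5ap (chr5:149264767-149288153, plus strand) was by far the most abundant of the 10 genes, with 2126 of the 3805 steady-state UMIs and 15163 of the 22208 AngII UMIs. At steady state it stood at 684 CPM (637 to 733) in Lyve1/Folr2 and 827 CPM (753 to 905) in Ear2/Retnla macrophages, 873 CPM in cDC1-like, 770 CPM in cDC2-like (type 2) and 893 CPM in nonclassical monocyte-like cells. On AngII classical monocytes (1412 CPM) and neutrophils (1407 CPM) led and did not differ from each other. The next 8 classes, from cDC2 at 924 CPM to nonclassical monocytes at 799 CPM, formed a plateau in which no neighbour differed beyond counting error. Among dendritic cells the migratory ones stood apart at 66.1 CPM (40.4 to 102).

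Lymphoid cells also carried Alox5ap. B cells held 10.7 CPM at steady state and 87.2 CPM on AngII, and T cells 38.7 and 141 CPM. A UMI was seen in 25.2% of AngII T cells (median 1080 UMIs per cell) and 15.5% of AngII B cells (median 3670), against 64.5% of other macrophages (median 1070). At 1000 UMIs the shares were 16.8%, 7.35% and 56.2%. The level of migratory dendritic cells lay at or below that of B and T cells in the same library. The part of free RNA in these levels was not tested.

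Alox5 (chr6:116410077-116461178, minus strand) was more restricted than its partner. At steady state it stood at 114 CPM (94.9 to 135, 60 of 104 cells) in Lyve1/Folr2 macrophages and 47.6 CPM (31.4 to 69.2) in Ear2/Retnla macrophages, a ratio of 2.39 (1.57 to 3.76), and had no UMI in B and T cells (at most 10.7 and 7.74 CPM). On AngII neutrophils (94.9 CPM, 68.6 to 128) and Lyve1/Folr2 macrophages (74.5 CPM, 60.7 to 90.5) led without differing from each other beyond counting error, and other macrophages stood at 23.2 CPM (19.6 to 27.2). Classical monocytes, at the top for Alox5ap, held 5.17 CPM (2.36 to 9.81). The cDC1-like cells had 1416 Alox5ap UMIs and no Alox5 UMI, which allows at most 1.84 CPM.

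Lta4h (chr10:93453411-93484875, plus strand) had lymphoid levels as high as macrophage levels at steady state. There Lyve1/Folr2 macrophages (39.3 CPM), B cells (39.1 CPM), T cells (46.4 CPM) and Ear2/Retnla macrophages (59.9 CPM) formed an order in which no neighbours differed beyond counting error. The highest level in a class of at least 20 cells was that of AngII cDC2-like cells, at 128 CPM (110 to 149, 57 of 122 cells), and the 11 steady-state cDC2-like cells stood at 163 CPM (117 to 221). After Cd209a, the leading genes of these 11 cells were mostly histone and cell-division genes such as Top2a, unlike those of the AngII class. The 14 AngII NK cell-like cells held 212 CPM (123 to 339). Neutrophils, rich in Alox5 and Alox5ap, held 26.5 CPM (13.7 to 46.2).

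Ltc4s (chr11:50236461-50238616, minus strand) lay at steady state almost wholly in the Lyve1/Folr2 macrophages. They held 620 of its 656 UMIs (94.5%), at 541 CPM (500 to 586) and with a UMI in 91 of 104 cells, although they made up 31.4% of all UMIs. Ear2/Retnla macrophages stood at 31.7 CPM (18.8 to 50.1), 17.1 times lower (10.7 to 29.0), and T and B cells together held 1 UMI. On AngII the Lyve1/Folr2 class still led at 307 CPM (278 to 338) but held 34.5% of the UMIs and made up 7.53% of all UMIs. Other macrophages, at 85.0 CPM (78.0 to 92.4), held 45.6% of them. Neutrophils stood between at 121 CPM (91.4 to 158), and classical monocytes (9.19 CPM) lay near T cells (6.61 CPM).

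**Figure D3:**
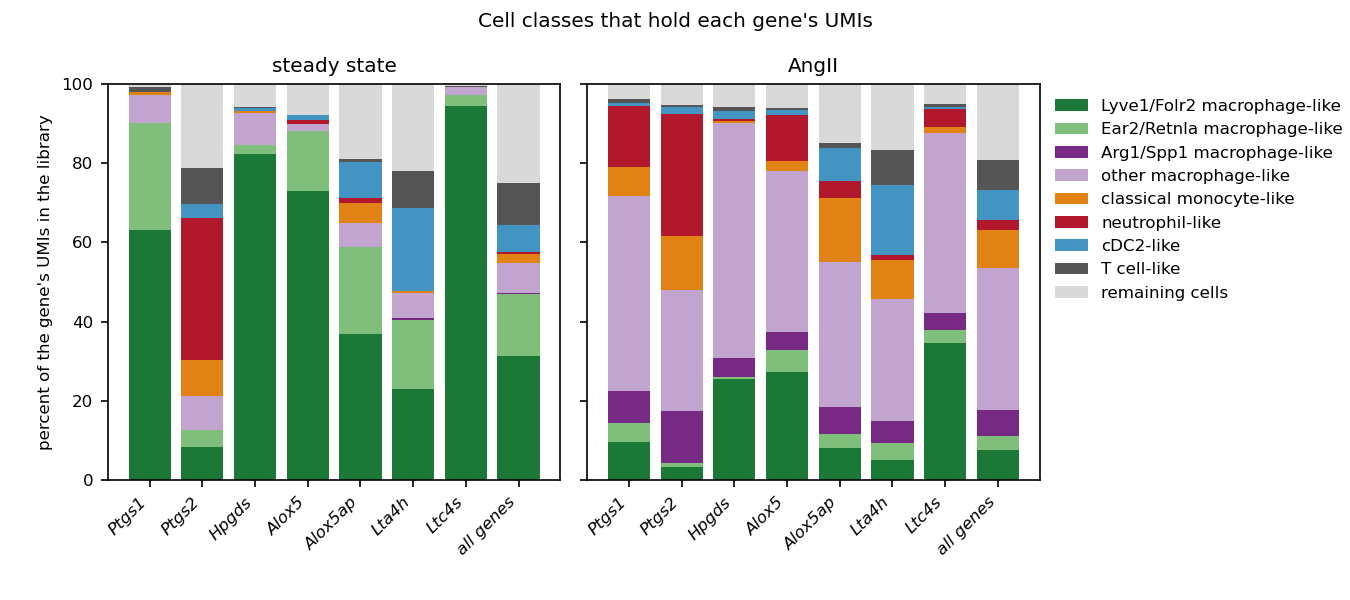
Share of the UMIs of 7 of the genes (percent, stacked bars) that lay in 8 cell classes and in the remaining cells, at steady state and on AngII, with the share of all genes' UMIs as the last bar; the steady-state segment of other macrophages is the class of 20 cells left unnamed in the text. At steady state 94.5% of Ltc4s and 82.3% of Hpgds UMIs lay in Lyve1/Folr2 macrophage-like cells, on AngII 34.5% and 25.5%. Neutrophil-like cells held 30.7% of the AngII Ptgs2 UMIs.

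Alox15 (chr11:70344152-70352031, minus strand), a lipoxygenase of a separate route that is known from eosinophils and resident peritoneal macrophages, had no UMI at steady state (at most 0.822 CPM) and 60 UMIs in 23 AngII cells. The 3 cells placed by eosinophil gating markers, a class left unnamed because none of those markers was among its 10 leading genes, all had one, with 10 UMIs in all, and 8 of the 23 cells were placed in no class. Of the 23 cells, 15 (65.2%, exact binomial interval 42.7 to 83.6) held at least 1 of 5 eosinophil markers, against 144 of 4175 cells without Alox15 (3.45%). Cd24a, a surface gene of granulocytes and B cells, was seen in 20 of the 23 and in 23.1% of the rest. Ear6 and Ear1, like Cd24a eosinophil markers not used to place cells, had no UMI in the 3 cells placed by eosinophil gating markers. Those cells held only 3321 UMIs in all. Macrophage classes held 17 of the 60 UMIs, 9 of them in a single Ear2/Retnla macrophage.

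The libraries could be set side by side in the 2 macrophage classes that both held. In Lyve1/Folr2 macrophages 8 of the 10 genes reached 20 UMIs. Ptgs2 stood at 10.5 CPM at steady state and 64.9 CPM on AngII, a ratio of AngII to steady state of 6.19 (interval 3.37 to 12.4), and Ptgs1 stood at 79.5 and 33.2 CPM, a ratio of 0.418 (0.285 to 0.603). Ltc4s was at 541 and 307 CPM (0.567, 0.499 to 0.643), Alox5 at 114 and 74.5 CPM (0.656, 0.501 to 0.857) and Hpgds at 199 and 131 CPM (0.656, 0.536 to 0.801). Alox5ap was higher on AngII, at 684 and 902 CPM (1.32, 1.20 to 1.44). For Pla2g4a (0.773, 0.499 to 1.19) and Lta4h (0.919, 0.601 to 1.41) the interval included 1. Ptgs2 was thus the member that was more than 2 times higher on AngII, as were 5.96% of the 8736 genes with enough UMIs, and Ptgs1 the one at less than 0.5 times, as were 6.79%. The median ratio of the 8 genes was 0.714, against 1.03 over all 8736.

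The cells of this class also differed between the libraries in genes that define it. Of its 8 gating markers 6 had ratios whose interval lay below 1, among them Lyve1 (0.449) and Timd4 (0.219), and of 6 further markers not used to place cells 5 did, among them Ccl24 (0.147) and Pf4 (0.587). The median cell held 9801 UMIs at steady state and 1654 on AngII. In cells with at least 3000 UMIs, 99 and 94 in number, Ptgs2 was again the gene above 2 and Ptgs1 the gene below 0.5. The part of the markers in the differences was not tested. All 3 of Alox5, Alox5ap and Ltc4s were seen together in 54 of 104 steady-state cells and in 45 of 268 AngII cells, at these unequal depths.

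In Ear2/Retnla macrophages 7 genes reached 20 UMIs. Ptgs2 stood at 10.6 and 49.0 CPM (4.64, 1.91 to 13.6), where all 6 steady-state UMIs came from 1 cell, so that without it no ratio could be given, and Ptgs1 at 68.7 and 34.8 CPM (0.506, 0.286 to 0.876). Ltc4s, at 31.7 and 63.3 CPM (1.99, 1.12 to 3.70), lay above 1 where the Lyve1/Folr2 class lay below it, but 47.5% of its AngII UMIs came from a single cell, without which, and without the highest steady-state cell, the ratio was 1.58. After every cell was thinned to 1000 UMIs it was 0.724, but this rests on few UMIs in 21 steady-state and 58 AngII cells. The Ltc4s ratio exceeded 2 with graph-based clusters, with 3 required markers and in cells of at least 3000 UMIs. Alox5ap (1.02, 0.899 to 1.16), Lta4h (1.11, 0.689 to 1.80), Alox5 (0.665, 0.354 to 1.23) and Pla2g4a (1.67, 0.839 to 3.45) had intervals that included 1. Of these 7 only Ptgs2 exceeded a ratio of 2, as did 7.27% of 6261 genes, and none lay below 0.5, as did 5.94%. Of the 6 gating markers of this class, Lyz1 (0.305) and Retnla (0.567) were among the 3 with an interval below 1.

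**Figure D4:**
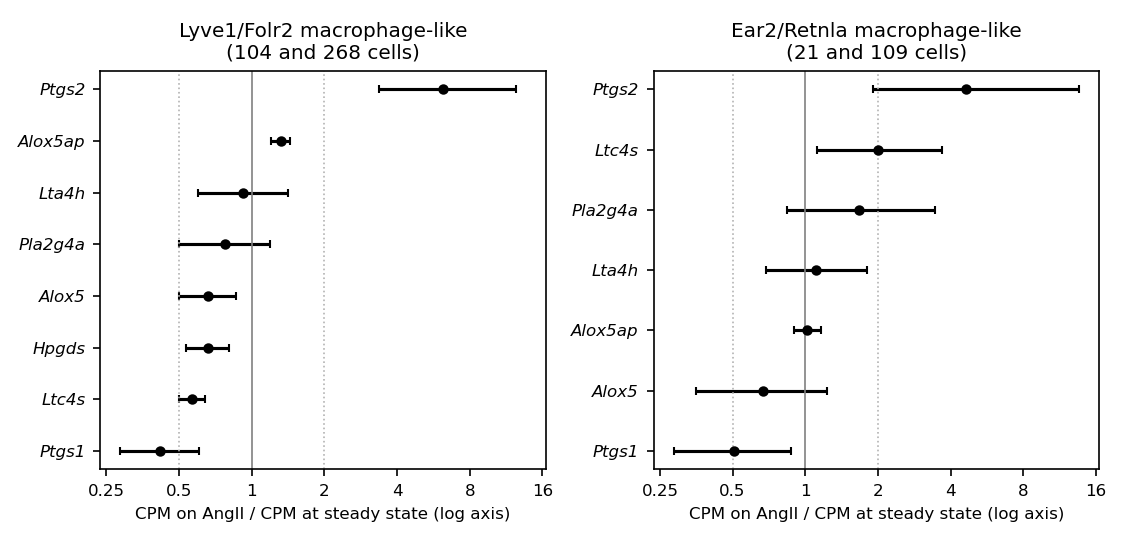
Ratio of AngII to steady-state CPM (log axis) for the genes with at least 20 UMIs in Lyve1/Folr2 and Ear2/Retnla macrophage-like cells, with exact 95% intervals that cover counting error only; the solid line is 1 and the dotted lines 0.5 and 2. Ptgs2 lies highest in both classes (6.19 and 4.64) and Ptgs1 lowest (0.418 and 0.506).

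Lymphoid cells were set side by side in the same way. In T cells Alox5ap stood at 38.7 and 141 CPM (3.64, 2.15 to 6.64) and in B cells at 10.7 and 87.2 CPM (8.17, 2.58 to 41.5), so the lymphoid Alox5ap level was higher in the AngII library. The higher Alox5ap level of AngII Lyve1/Folr2 macrophages stands beside these lymphoid values, and their part in it was not tested. For Ptgs2 T cells stood at 33.5 and 10.3 CPM (0.307, 0.134 to 0.708), a value set by the 1 steady-state cell named above. B cells, with 1 and 4 UMIs, stood at 3.56 and 9.97 CPM, too few for a ratio.

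Within a library the genes separated the classes as follows. Of 7 genes with enough UMIs at steady state, Hpgds, Ltc4s and Alox5 were more than 2 times higher in Lyve1/Folr2 than in Ear2/Retnla macrophages, where 18% of 7729 genes were. On AngII the same 3 genes were more than 2 times higher in Lyve1/Folr2 than in other macrophages (ratios 2.05, 3.61 and 3.21 for Hpgds, Ltc4s and Alox5), against 6.03% of 10946 genes, and Ptgs2 was lower (0.502, 0.398 to 0.625). In Arg1/Spp1 macrophages 1 of 8, Ptgs2 (2.34, 2.06 to 2.65), exceeded 2 against the other macrophages, where 4.07% of genes did, while Hpgds (0.423) and Ltc4s (0.515) were lower. Neutrophils exceeded 2 in 3 of 8, Ptgs2 (14.3), Ptgs1 (4.42) and Alox5 (4.09), against 13.2% of genes. Classical monocytes exceeded 2 in none of the 8, against 2.71%, with Ptgs2 at 1.66 (1.47 to 1.88) and Ltc4s at 0.108 (0.0614 to 0.177).

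The Lyve1/Folr2 class of both libraries and the AngII other macrophages were split by the reporter, although a cell without a YFP UMI may only be shallow. Among AngII other macrophages, 232 cells with a YFP UMI (median 4510 UMIs) and 1547 without (median 996) differed in Ltc4s (115 and 68.5 CPM, ratio 1.67, 1.41 to 1.98), Hpgds (85.2 and 51.6 CPM, 1.65, 1.35 to 2.01) and Alox5 (32.8 and 17.8 CPM, 1.84, 1.32 to 2.57). Ptgs1 (45.8 and 29.7 CPM, 1.54, 1.18 to 2.02) and Pla2g4a (42.4 and 31.6 CPM, 1.34, 1.02 to 1.76) were also higher with a YFP UMI. Alox5ap was slightly lower (831 and 881 CPM, 0.943, 0.892 to 0.997). After thinning to 1000 UMIs the ratios of Ptgs1 and Alox5ap crossed 1. Ptgs2 stood at 128 and 130 CPM (0.978, 0.845 to 1.13), and its ratio was 0.498 after thinning to 1000 UMIs. Among AngII Lyve1/Folr2 macrophages Ptgs2 stood at 35.4 CPM in 78 cells with and 110 CPM in 190 cells without a YFP UMI (0.322, 0.199 to 0.511), and Ltc4s at 342 and 253 CPM (1.35, 1.10 to 1.67). In the steady-state class, with 81 and 23 cells, Ltc4s did not differ beyond counting error (1.12, 0.877 to 1.45) and Hpgds was at 0.683 (0.485 to 0.982). The part of depth in these differences was not tested beyond the thinned values.

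Across 18 class-by-library groups of at least 20 cells, 2 members were each other's nearest gene among 5096 candidates: Alox5 and Ltc4s, with a Pearson correlation of log CPM of 0.915. The candidates left out the gating markers, so a gene that defines a class could not be named. The groups included the steady-state class of 20 cells left unnamed above. The gene most like Ptgs2 was Ccrl2 (0.871), followed by Mboat7, which reattaches arachidonic acid to membrane lipids (0.856), and Slpi (0.827). Ptgs1 was most like Tlr4 (0.920), Alox5ap most like Rasgrp4 (0.959), Hpgds most like Pmp22 (0.872) and Lta4h most like Vrk1 (0.883). The groups share libraries and depth, so these values are descriptions only. At 1000 UMIs per cell, genes of the set were seen together about as often as their separate shares predict: Alox5ap with Ltc4s in 16.5% of resting Lyve1/Folr2 macrophages (9.92 to 25.1), where the product of their shares was 18.9%.

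Of 54 further genes of the pathways, 52 were found. In Lyve1/Folr2 macrophages 22 reached 20 UMIs, of which 5 were more than 2 times higher on AngII and 2 less than 0.5 times, beside 5.96% and 6.79% of all 8736 genes. Their median ratio was 1.08, against 1.03 over all genes. The higher ones were the prostaglandin E2 receptor Ptger4 (44.5 and 98.1 CPM; 2.20, 1.58 to 3.1), Dpep2, which converts leukotriene D4 to leukotriene E4 (3.68, 1.89 to 7.87), Ggt5, which converts leukotriene C4 to leukotriene D4 (2.09, 1.16 to 3.91), the exporter Abcc4 (2.53, 0.963 to 7.80) and the leukotriene B4 receptor Ltb4r1. Ltb4r1 had no steady-state UMI and 31.7 CPM on AngII, at least 9.43-fold higher by its exact interval (12.1-fold against a floor of 3 UMIs in the steady-state class). The lower ones were Hpgd, the main enzyme of prostaglandin breakdown (718 and 129 CPM; 0.180, 0.152 to 0.212), and the secreted phospholipase Pla2g2d (85.6 and 6.64 CPM; 0.0775, 0.0344 to 0.153). In Ear2/Retnla macrophages 18 were read, beside 7.27% of all genes above 2 and 5.94% below 0.5: Ptger4 (7.86, 2.81 to 30.4) and Ptgr1, a reductase of leukotriene B4 and prostaglandins (2.87, 1.01 to 10.0), were higher and Hpgd was lower (96.9 and 12.7 CPM; 0.131, 0.0537 to 0.276). Hpgd and Ptger4 thus lay on the same side of 1 in both classes. Ltb4r1 did not: in Ear2/Retnla macrophages it stood at 162 and 117 CPM (0.722, 0.524 to 0.991). For Dpep2 the interval there included 1 (0.971, 0.605 to 1.56). The thromboxane synthase Tbxas1 (1.06 and 1.21) and the cytosolic synthase Ptges3 (1.01 and 1.74) lay within 2 times in both.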

How the data were processed

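Single-cell counts of 2 libraries (10x 3′ v3.1) were used, 346 steady-state and 4419 AngII barcodes. Demultiplexing is credited to bcl2fastq in the labels and to Je-demultiplex-illu in the methods. The authors made the deposited UMI count per gene and cell with Cell Ranger 3.1.0 on GRCm38.p6 with GENCODE M24 and the reporter; filtered matrices were deposited. No sample was left out.

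The authors' limits on cells (300 to 6500 genes, at most 5% mitochondrial UMIs) were applied here, removing 40 and 221 barcodes. The paper gives 346 and 4419 analysed cells, the same numbers as the deposited barcodes, so fewer cells were used here than in the paper. The libraries shared 0 barcodes. Each cell was placed by 114 gating markers of 18 lists: cells with at least 3 markers of a list and 2 more than of any other gave class profiles (pseudocount 0.5), and a cell joined the most likely class with at least 2 markers and a posterior of 0.9, otherwise none. Doublets were not called; ambiguous cells stayed unplaced (3 and 635), as did 1 plasma-cell barcode per library with 100 or more Jchain UMIs. Counts were summed per class and scaled to CPM, with exact Poisson, Clopper-Pearson and conditional ratio intervals (95%). A ratio needed 20 UMIs over both groups, ranked classes 20 cells, and 2 or 0.5 was the size rule; a floor is 3 counts. Likeness used log CPM with a pseudocount of 10. The gate and intervals were tested on simulated counts.

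Named genes were the 10 members, for each member with at least 100 UMIs in each library the most alike genes (up to 3, by Pearson correlation), and pathway genes with at least 100 UMIs over both libraries. Il1b, Inhba, Cd24a, Ear6 and Ear1 were named after their values were seen. Members and lists were chosen with earlier results of these data known. Python 3.11.15, NumPy 2.4.6, SciPy 1.17.1 and pandas 2.3.3 were used, and R 4.3.3 with Seurat 5.3.0 and sctransform 0.4.2 for clusters. Without replicate libraries no test was made. Alternatives covered the filter, gate, clusters, thinning, cell weights, scaling and top cells.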

Additional observations from a re-analysis of the deposited data

Results flagged for a closer look

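Ptgs2 stood apart between classes under the same contrast of AngII with steady state: its ratio was 6.19 in Lyve1/Folr2 macrophage-like and 4.64 in Ear2/Retnla macrophage-like cells but 0.307 in T cell-like cells, where the 13 steady-state UMIs came from 1 cell. Ltc4s lay on opposite sides of 1, at 0.567 in Lyve1/Folr2 and 1.99 in Ear2/Retnla macrophages. The latter was 0.724 after thinning to 1000 UMIs, a value from few UMIs in 21 and 58 cells. It was above 2 with graph-based clusters, 3 required markers and cells of at least 3000 UMIs. With 1 library per condition neither difference between classes was tested. Outside the comparisons, 430 UMIs of the 10 genes lay in the 40 steady-state and 3050 in the 221 AngII barcodes that the cell filter removed, mostly in barcodes with over 6500 genes (281 UMIs in 4 barcodes and 2541 in 36).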

How the results depend on the processing

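Of 109 ratios of AngII to steady state recomputed under the alternatives, 96 moved by less than their counting interval, 12 moved by more and 1 crossed 1 from a value whose interval excluded 1. That was Ltc4s in Ear2/Retnla macrophages, 0.724 after thinning every cell to 1000 UMIs, which also left 5 of the 7 genes of that class with a value. Thinning left 21 and 58 cells of that class, so most of its thinned ratios rest on few UMIs. In Lyve1/Folr2 macrophages Ptgs2 ranged from 4.74 to 8.32, Ptgs1 from 0.366 to 0.432 and Ltc4s from 0.544 to 0.603, and the counts above 2 and below 0.5 stayed at 1 except that thinning gave 2 below 0.5, Pla2g4a and Ptgs1. There thinned Pla2g4a was seen in only 6 of 103 steady-state and 1 of 174 AngII cells, and thinned Ptgs2 in 1 of 103 and 7 of 174. In Ear2/Retnla macrophages Ptgs2 ranged from 3.45 to 16.8, Ptgs1 from 0.121 to 0.828, Alox5 from 0.181 to 1.31 and Ltc4s from 0.724 to 2.51. The low ends of the last 3 came from thinning, where Ptgs1 was seen in only 3 of 21 steady-state and 1 of 58 AngII cells of this class. There the count above 2 was 0 after thinning and 2 with graph-based clusters, the mean of per-cell CPM (Pla2g4a and Ptgs2), 3 required markers and cells of at least 3000 UMIs (Ptgs2 and Ltc4s in these and the clusters). The count below 0.5 was 2 after thinning (Ptgs1 and Alox5) and 1 with all barcodes, the mean of per-cell CPM and the top cell left out (Ptgs1 in each). With the top cell left out Ptgs2 had no steady-state UMI and Pla2g4a was the gene above 2. The causes were not tested. The settings of 3 markers and 3000 UMIs were chosen after seeing the data. No AngII cluster came closest to the Lyve1/Folr2 profile, so clusters gave that class no ratio. Of 45 reporter ratios, 37 moved by less than their interval and 2 whose intervals excluded 1 crossed it in AngII other macrophages thinned to 1000 UMIs, Ptgs1 (0.586, from 1.54) and Alox5ap (1.05, from 0.943). Of 130 shares of cells with a UMI 122 moved with thinning. Among 374 recomputed class levels in CPM, 78 moved beyond their counting interval. That was so for 30 of 65 with the mean of per-cell CPM and 23 of 49 with graph-based clusters. It was so for 15 of 65 without the 5% of cells with most UMIs. No paired analysis was possible because each condition has 1 library. Depth limits the AngII cells, 45.5% of which held fewer than 1000 UMIs and drop out of thinned values.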
